A study of Mus musculus with 26 samples.

Results

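The genes described here are 10 effectors of the ATF4 branch of the integrated stress response, chosen by name: Atf4, Atf5, Ddit3, Trib3, Nupr1, Chac1, Ddit4, Sesn2, Cebpb and Asns. The members and the related gene lists were chosen with earlier results of these data known. All 10 members were among the 55254 gene symbols measured, and all 10 passed the expression filter. They were followed in 26 RNA-seq libraries, each from the inner cell mass (ICM) of 1 CD-1 mouse embryo, made by the full-length FLASH-seq method. E2.75 morulae from timed natural matings were cultured in KSOM medium for 24 hours, after which the ICM was isolated by immunosurgery from embryos without their zona pellucida. The 5 control ICMs came from embryos given the vehicle DMSO. The other groups received 10 µM LY294002 (LY, 7 ICMs), 1 µg/ml FGF4 plus heparin (FGF4, 8 ICMs) or LY294002, FGF4 and heparin at these doses (LY+FGF4, 6 ICMs). LY294002 is a kinase inhibitor used here against PI3K, and it is known to act on mTOR as well, so the groups treated with it are models of drug exposure and not of the loss of a gene. FGF4 is the growth factor that drives primitive endoderm formation in the ICM, and heparin stabilises it. Embryos of 5 litters were mixed before they were shared out, so the litter behind a library is unknown and each library is a separate embryo. An ICM holds several cell types, and fewer cells of a type and less RNA per cell cannot be told apart in these values.

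In the integrated stress response, kinases that sense amino acid shortage, endoplasmic reticulum stress, heme shortage or viral RNA phosphorylate the translation initiation factor eIF2. General protein synthesis then falls, while the Atf4 transcript is translated more because of short upstream reading frames, so that the level of Atf4 mRNA is not a measure of ATF4 protein. ATF4 pairs with C/EBP family proteins and binds C/EBP-ATF response elements in genes for amino acid uptake and synthesis, for tRNA charging and for stress regulators. mTORC1, which lies downstream of PI3K, is also known to raise the amount of ATF4 protein.

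4 of the 10 members held the response element core TGATGNAA, searched on both strands, between 250 bases before and 50 bases after the start site in RefSeq promoters of GRCm38.p6. These 4 sequences are shown because 3 of the 4 belong to the members with the largest differences described below. The match is in capitals, and each sequence runs 5′ to 3′ along the gene's own strand.
Trib3, chr2:152344011-152344310, minus strand: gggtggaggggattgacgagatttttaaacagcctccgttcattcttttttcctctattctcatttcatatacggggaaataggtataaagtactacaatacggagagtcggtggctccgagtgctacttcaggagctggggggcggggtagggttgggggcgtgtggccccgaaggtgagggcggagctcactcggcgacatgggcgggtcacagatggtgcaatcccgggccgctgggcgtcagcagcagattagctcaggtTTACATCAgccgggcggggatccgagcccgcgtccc
Nupr1, chr7:126625421-126625720, minus strand: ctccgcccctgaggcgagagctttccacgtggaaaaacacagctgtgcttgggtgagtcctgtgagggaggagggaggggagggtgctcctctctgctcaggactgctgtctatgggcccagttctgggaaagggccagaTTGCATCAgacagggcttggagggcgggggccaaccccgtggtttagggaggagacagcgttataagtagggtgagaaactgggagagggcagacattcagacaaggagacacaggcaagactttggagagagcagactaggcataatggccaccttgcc
Chac1, chr2:119350992-119351291, plus strand: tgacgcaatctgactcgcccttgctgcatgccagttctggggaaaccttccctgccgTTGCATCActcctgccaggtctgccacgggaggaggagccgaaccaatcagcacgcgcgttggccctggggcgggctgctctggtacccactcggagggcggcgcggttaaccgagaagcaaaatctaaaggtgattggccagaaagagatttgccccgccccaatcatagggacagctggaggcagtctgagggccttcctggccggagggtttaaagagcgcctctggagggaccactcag
Asns, chr6:7693160-7693459, minus strand: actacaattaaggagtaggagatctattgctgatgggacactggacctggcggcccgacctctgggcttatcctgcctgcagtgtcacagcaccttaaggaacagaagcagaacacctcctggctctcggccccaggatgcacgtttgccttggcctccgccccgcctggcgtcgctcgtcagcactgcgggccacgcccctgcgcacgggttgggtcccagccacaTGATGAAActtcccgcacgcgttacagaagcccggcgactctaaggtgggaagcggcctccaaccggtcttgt
In Trib3 the match lay at 14 to 21 bases after the start site and in Nupr1 at 110 to 103 bases before it. In Chac1 it lay at 193 to 186 bases before the start site and in Asns at 23 to 16 bases before it. The same letters occurred in 1304 of 32851 promoters of that length, or 3.97%. The cyclic AMP response element TGACGTCA, another motif bound by factors of this kind and read the same on both strands, occurred in 0 of the 10 members and in 1.79% of promoters. A match describes letters only and does not show that a factor binds there.

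The members were described in TPM, the transcript abundance scaled to gene length and to the same total in each library, so that levels can be compared between genes. In DMSO the members ranged from 235 TPM for Asns and 182 TPM for Atf4 to 15.1 TPM for Atf5 and 11.8 TPM for Ddit3, as group means. On GRCm38, by the GENCODE M21 annotation, Atf4 spans 80255184 to 80257541 on chromosome 15, Trib3 152337422 to 152344032 on chromosome 2, and Nupr1 126623249 to 126630861 on chromosome 7. Chac1 spans 119351229 to 119354381 on chromosome 2, Ddit4 59949669 to 59951834 on chromosome 10, and Asns 7675169 to 7693254 on chromosome 6. All are protein-coding, and isoforms were not separated. Since the strandedness of the libraries is not given in the sources used here, 4 members whose gene spans overlap other genes are uncertain. On the opposite strand, Atf5 shares 571 bases with Nup62 and 272 bases with Il4i1, Cebpb 908 bases with Tmem189, and Ddit3 68 bases with Mars. Sesn2 shares 6089 bases with Gm12981 on the same strand, an overlap that strandedness would not resolve. The symbol Ddit3 also covers 2 overlapping gene models.

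DMSO libraries listed 10212 to 11367 genes at 1 TPM or more, LY libraries 9860 to 10215, FGF4 libraries 8315 to 10871 and LY+FGF4 libraries 7486 to 9534. In 6 libraries, 2 of FGF4 and 4 of LY+FGF4, it was under 9000. The spacing of low TPM values gives an estimate of what 1 read was worth. Per kilobase of transcript this was 0.733 to 2.61 TPM for DMSO libraries, 2.06 to 3.86 TPM for LY, 1.46 to 3.66 TPM for FGF4 and 2.52 to 3.62 TPM for LY+FGF4, so DMSO held the most deeply read libraries. The ICM marker Pou5f1 was at 538 TPM or more in every library. The 7 epiblast markers summed to 643 to 939 TPM in DMSO and 504 to 693 with LY, and to 107 to 436 with FGF4 and 64.9 to 396 with both, where Fgf4 was at 0 throughout. The 7 trophectoderm markers, of outer cells that immunosurgery should remove, summed to 368 to 828 TPM in DMSO and 344 to 723 with LY, and to 298 to 880 with FGF4 and 178 to 573 with both, with Elf5 at 0 in both groups given FGF4 and Tfap2a at 0 in LY+FGF4.

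LY was compared with DMSO to ask how blocking PI3K changes the ICM in medium without added FGF4. Trib3, Nupr1 and Chac1 fell, and all 10 members had a negative log2 fold change. Nupr1 and Chac1 were listed at 0 in most LY libraries. Of the 10 members, 3 fell by limma's moderated test on log2(TPM + 1). The threshold was a Benjamini-Hochberg adjusted p under 0.05 over all 12034 genes tested, where 0.299% of all genes fell. Because the members were chosen with earlier results of these data known, the excess over this share is a description and no independent test. The median log2 fold change of the 10 members was -1.46, and that of all genes was -0.10, with 57.1% of all genes negative. The groups LY+FGF4 and FGF4, described further on, share no library with this comparison.

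**Figure D1:**
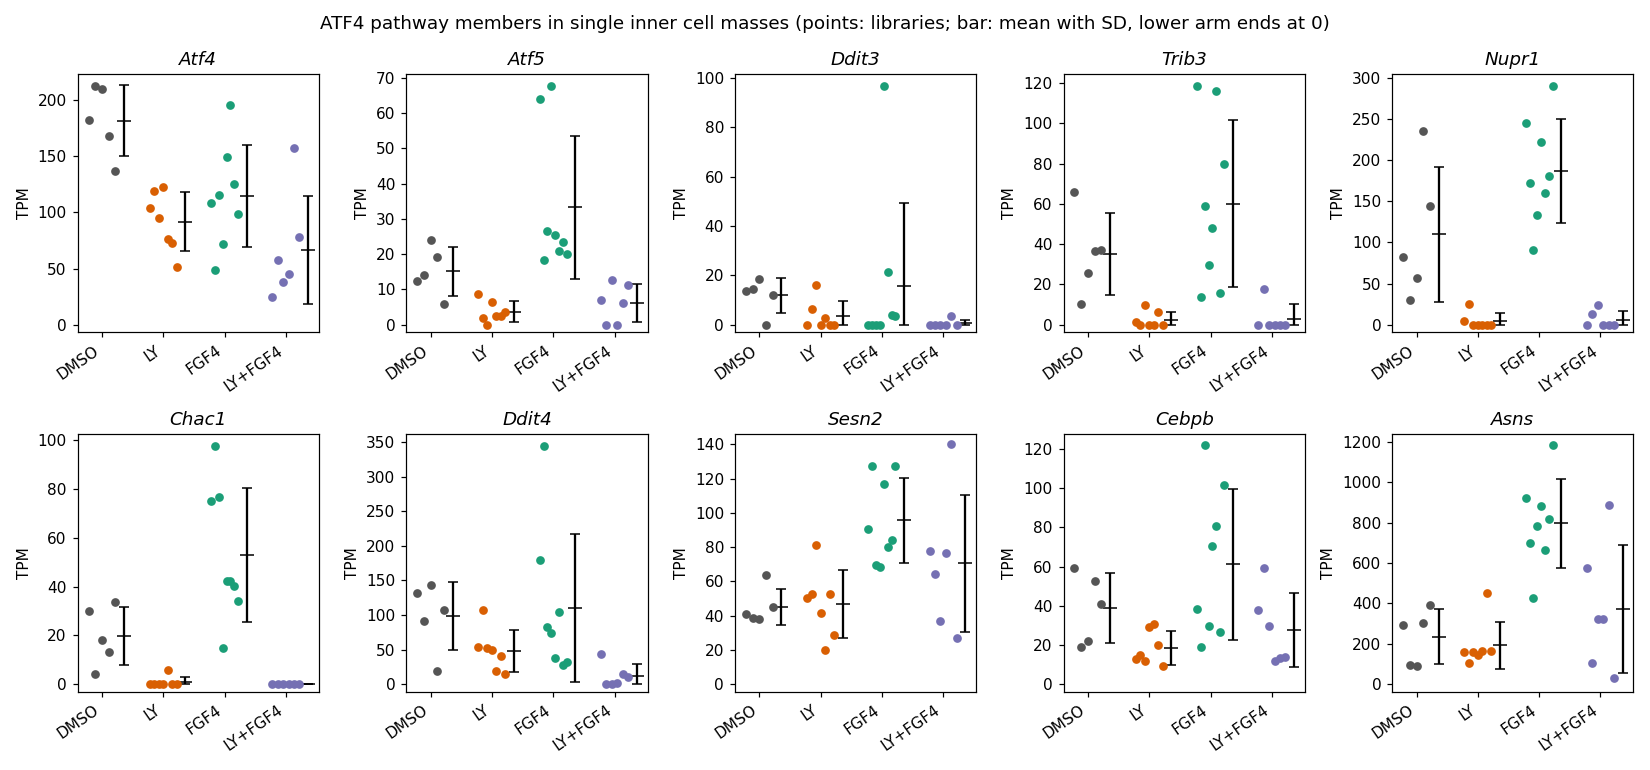
TPM of the 10 members in each of the 26 libraries (points), by group on the horizontal axis, with the mean and SD of each group (black; the lower arm ends at 0). For Nupr1 the 13 libraries with LY lie at 25.73 TPM or lower and the 13 without it at 29.65 TPM or higher, and all 6 LY+FGF4 libraries have Chac1 at 0.

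Nupr1 encodes a small chromatin-associated protein induced by stress. It stood at 81.98, 29.65, 56.87, 235.98 and 144.54 TPM in DMSO replicates 3, 6, 7, 8 and 9, and at 0 to 25.73 TPM in LY, with a median of 0 and 5 of 7 libraries at 0. Every LY library was below every DMSO library, and the means were 109.8 ± 82.4 TPM (SD, n = 5) and 4.26 ± 9.59 TPM (n = 7). The log2 fold change on the log2(TPM + 1) scale was -5.43 (SE 0.85, limma adjusted p = 0.00127). The DMSO libraries read less deeply, replicates 6, 7 and 8, held 29.65, 56.87 and 235.98 TPM.

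Trib3 encodes a pseudokinase that binds ATF4 and AKT and is known to dampen both. It stood at 65.68, 10.21, 25.63, 36.47 and 37.09 TPM in the 5 DMSO libraries, in the same order, and at 0 to 9.89 TPM in LY, with a median of 0 and 4 of 7 libraries at 0. The groups did not overlap, although DMSO replicate 6 and the highest LY library nearly met. The log2 fold change was -3.86 (SE 0.80, limma adjusted p = 0.0216). The call was lost without DMSO replicate 3, 8 or 9, with adjusted p between 0.0627 and 0.0956 and log2 fold changes between -3.79 and -3.58. It was also lost with the number of genes listed as covariate (-3.46, adjusted p = 0.0816) and with the trophectoderm markers as covariate (-3.38, adjusted p = 0.0600).

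Chac1 encodes an enzyme that degrades glutathione and is a widely used readout of ATF4 and CHOP activity. It stood at 29.87, 4.31, 18.05, 13.2 and 33.49 TPM in DMSO and at 0 in 6 of 7 LY libraries. LY replicate 6, at 5.64 TPM, lay above DMSO replicate 6, so the groups overlapped by this pair. The log2 fold change was -3.72 (SE 0.58, limma adjusted p = 0.00127). Chac1 has 1 annotated transcript of 1637 bases, for which 1 read was worth an estimated 1.43 to 2.69 TPM in LY. The value of 4.31 TPM in DMSO replicate 6 thus rested on an estimated 2.98 reads, and a listed 0 in LY allows up to 3 reads, or 4.29 to 8.06 TPM, by counting error alone.

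The transcription factors were lower without passing the test. Atf4 stood at 182.03, 212.74, 210.33, 167.8 and 136.69 TPM in DMSO and at 51.03 to 122.8 TPM in LY, with a median of 95.37. Every LY library lay below every DMSO library, and the log2 fold change was -1.02 (95% interval -1.75 to -0.29, limma adjusted p = 0.298). Of the 10 members 3 were lower in every LY library, namely Atf4, Trib3 and Nupr1, against 1.54% of all genes. Atf5, a relative of ATF4 that acts on mitochondrial and survival genes, stood at 12.5, 14.08, 24.11, 19.11 and 5.82 TPM in DMSO and at 0 to 8.6 TPM in LY with a median of 2.53 (log2 fold change -1.96, SE 0.68, adjusted p = 0.292). Ddit3, which encodes the pro-apoptotic factor CHOP, was at 13.83, 14.66, 18.56, 0 and 12.1 TPM in DMSO and at 0 in 4 of 7 LY libraries, with the highest at 16.18 TPM (log2 fold change -1.90, SE 1.04, adjusted p = 0.670). Cebpb, a C/EBP protein and dimer partner of ATF4, averaged 38.8 ± 18 TPM in DMSO and 18.3 ± 8.71 TPM in LY, with overlapping groups (log2 fold change -1.03, SE 0.51, adjusted p = 0.592).

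The mTORC1 inhibitors Ddit4 and Sesn2 and the biosynthetic enzyme Asns did not separate between LY and DMSO. Ddit4 stood at 131.43, 91.72, 143.57, 18.32 and 107.68 TPM in DMSO and between 15.25 and 107.32 TPM in LY, with a median of 49.2 (log2 fold change -0.99, SE 0.80, limma adjusted p = 0.857). Sesn2, a leucine sensor of that pathway, averaged 45.3 ± 10.5 and 46.8 ± 19.9 TPM, with a log2 fold change of -0.04 and a 95% interval of -0.78 to 0.69. Asns, the asparagine synthetase gene, averaged 235 ± 136 and 192 ± 116 TPM, with a log2 fold change of -0.19 and an interval of -1.30 to 0.92. The Sesn2 interval leaves room for a change of up to 0.78 log2 units downward, and that of Asns for one of up to 1.30.

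Both the depth of the libraries and the primitive endoderm markers moved with this comparison. The 7 primitive endoderm markers summed to 323 to 686 TPM in DMSO and to 160 to 305 TPM in LY, with Sox7 at 0 in both groups and Foxa2 at 0 in LY, and 2 of the 7 fell, Sox17 and Pdgfra. None of the trophectoderm markers was called, but Cdx2 was lower in every LY library, at 1.26 to 11.16 TPM against 16.17 to 177.59 TPM in DMSO (limma adjusted p = 0.455). When the estimated read number entered the fit as a covariate, 0 members were called, and Nupr1 had a log2 fold change of -5.22 (limma adjusted p = 0.0581), Chac1 -2.92 (adjusted p = 0.119) and Trib3 -3.60 (adjusted p = 0.282). A fit added after the data were seen took the mean log2(TPM + 1) of the primitive endoderm markers as a covariate. It called 0 members and 0 of all genes, against 45 of all genes without this covariate. The marker sums did not overlap between DMSO and LY, so this fit cannot separate the markers from the treatment. In it Nupr1 had a log2 fold change of -6.45 (limma adjusted p = 0.125), Trib3 -4.97 and Chac1 -3.63 (adjusted p = 0.161 each). The part of cell type and depth in the 3 log2 fold changes was not tested further.

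The effect of the inhibitor with FGF4 supplied was read from LY+FGF4 against FGF4. Trib3, Nupr1 and Chac1 fell here too, and Atf5 and Ddit4 fell with them. Of the 10 members 5 fell by limma at an adjusted p under 0.05, where 2.83% of all genes fell, and all 10 had a negative log2 fold change, against 63.1% of all genes. The median log2 fold change was -1.69 over the 9 members other than Chac1, which was listed at 0 throughout LY+FGF4, and -0.24 over all genes.

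**Figure D2:**
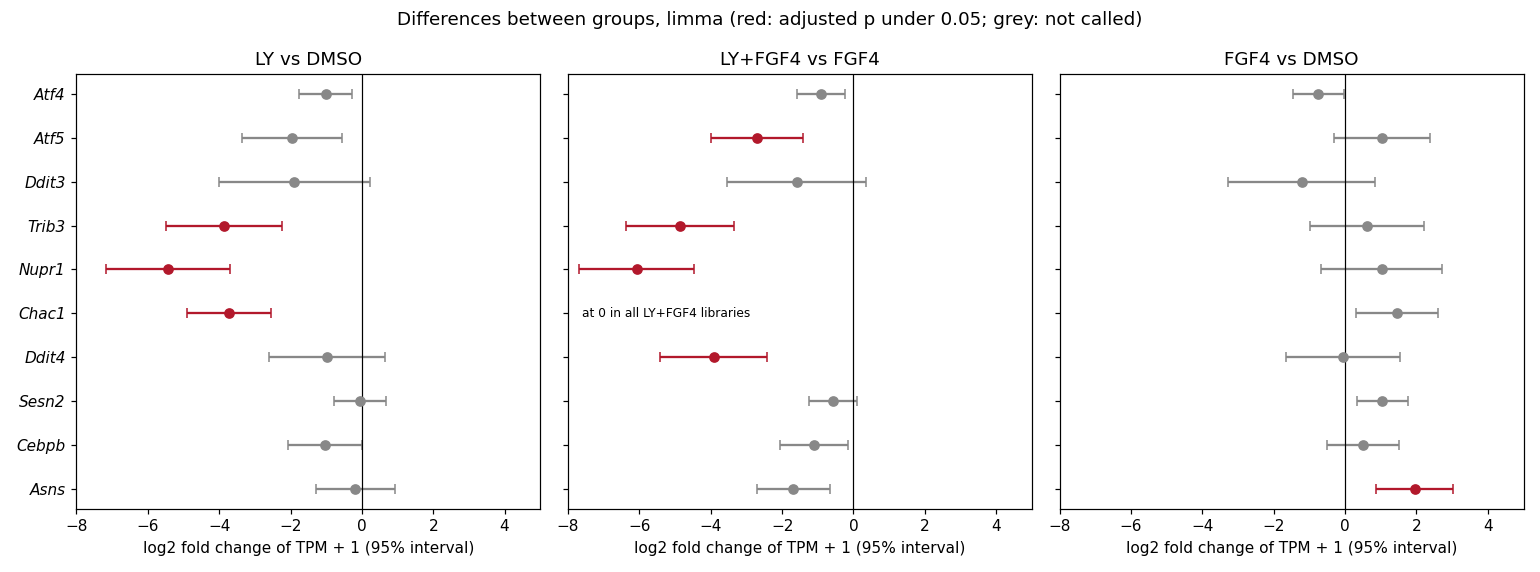
Log2 fold change of TPM + 1 (horizontal axis, with its 95% interval) of each member in 3 comparisons, by limma, with adjusted p under 0.05 in red. LY vs DMSO has 3 members in red and LY+FGF4 vs FGF4 has 4 in red beside Chac1, for which no fold is drawn, while FGF4 vs DMSO has only Asns in red, to the right of 0.

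Nupr1 ran from 91.23 to 290.31 TPM in FGF4, with a median of 177, and from 0 to 23.73 TPM in LY+FGF4, with 4 of 6 libraries at 0. Every LY+FGF4 library was below every FGF4 library (log2 fold change -6.08, SE 0.79, limma adjusted p = 3.72e-05). Chac1 ran from 14.79 to 97.77 TPM in FGF4, with a median of 42.3, while each of the 6 LY+FGF4 libraries listed it at 0 (adjusted p = 3.96e-07). A count of 0 there allows up to 3 reads, or an estimated 5.25 to 7.56 TPM by counting error alone, which is below the lowest FGF4 library.

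Trib3 ran from 13.85 to 118.44 TPM in FGF4, with a median of 53.4, and was at 0 in 5 of 6 LY+FGF4 libraries. LY+FGF4 replicate 3, at 17.68 TPM, was the exception and lay above the lowest FGF4 libraries (log2 fold change -4.86, SE 0.73, limma adjusted p = 0.000287). Atf5 ran from 18.37 to 67.7 TPM in FGF4, with a median of 24.3, and from 0 to 12.71 TPM in LY+FGF4, with a median of 6.58 and 2 libraries at 0. Its groups did not overlap (log2 fold change -2.71, SE 0.63, adjusted p = 0.0152). Atf5, Nupr1 and Chac1 were the 3 members lower in every LY+FGF4 library than in every FGF4 library, against 0.49% of all genes.

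Ddit4, which encodes the mTORC1 inhibitor REDD1, ran from 27.95 to 344.87 TPM in FGF4, with a median of 77.8, and from 0 to 43.79 TPM in LY+FGF4, with a median of 5.75 and 2 libraries at 0. The highest LY+FGF4 library overlapped the lower FGF4 libraries (log2 fold change -3.92, SE 0.73, limma adjusted p = 0.00280). Asns ran from 425 to 1184 TPM in FGF4, with a median of 799, and from 32.54 to 887 TPM in LY+FGF4, with a median of 321, and missed the threshold (log2 fold change -1.69, SE 0.50, adjusted p = 0.0542).

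The remaining members were lower without a call. Atf4 ran from 48.99 to 195.96 TPM in FGF4, with a median of 112, and from 24.72 to 157.38 TPM in LY+FGF4, with a median of 51.4, and the groups overlapped (log2 fold change -0.91, SE 0.33, limma adjusted p = 0.123). The differences were -1.10 for Cebpb (adjusted p = 0.193), -0.58 for Sesn2 (adjusted p = 0.347) and -1.60 for Ddit3 (adjusted p = 0.377). Ddit3 was at 0 in 4 of 8 FGF4 and in 5 of 6 LY+FGF4 libraries, so little of it could be compared.

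The primitive endoderm markers overlapped between these groups, at 1187 to 1981 TPM in FGF4 and 597 to 2186 TPM in LY+FGF4, with Sox7 at 0 in LY+FGF4. Pou5f1 fell, from 950 to 1495 TPM in FGF4 to 538 to 1034 TPM in LY+FGF4 (limma adjusted p = 0.0456), and its part in the result was not tested. The same 5 members were called with the primitive endoderm markers and with the estimated read number as covariates. Adjusted for the number of genes listed, 4 were called, and Atf5 had a log2 fold change of -3.04 (adjusted p = 0.0547).

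Across the 13 libraries given LY and the 13 not given it, Chac1 was at 0 in 12 and 0 libraries, Nupr1 in 9 and 0, Trib3 in 9 and 0, Ddit3 in 9 and 5, Atf5 in 3 and 0 and Ddit4 in 2 and 0. All of Trib3, Nupr1 and Chac1 were at 0 together in 2 of 7 LY and in 4 of 6 LY+FGF4 libraries. Each library with LY had at least 1 of the 3 at 0, and no library without LY had any of them at 0. These 3 were singled out by the LY comparisons of the same libraries, so their zeros restate those results. The share of all genes with such zeros was not counted. Per kilobase 1 read was worth up to 3.86 TPM in LY and 3.62 TPM in LY+FGF4, against up to 2.61 TPM in DMSO and 3.66 TPM in FGF4. Atf4, Sesn2, Cebpb and Asns were above 0 in all 26 libraries.

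The difference between both LY effects, with and without FGF4, was tested as an interaction. By limma 0 of the 10 members were called, against 0.0499% of all genes. An unadjusted p under 0.05 was found for 726 of all 12034 genes and for 2 members. These were Ddit4, with an interaction of -2.94 log2 units (SE 1.08, adjusted p = 0.630), and Chac1, for which no size is given because all LY+FGF4 libraries were at 0. The calls of Atf5 and Ddit4 with FGF4 and not without it are therefore not shown to differ between the settings.

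FGF4 was compared with DMSO for the effect of the growth factor given with heparin. No group received heparin alone, so the parts of FGF4 and heparin cannot be told apart. This comparison shares its libraries with both of the comparisons above. Asns rose, and it was the 1 member of 10 called higher by limma, where 0.981% of all genes rose. Asns stood at 292.27, 96.64, 88.06, 305.09 and 394.58 TPM in DMSO, and the lowest FGF4 library, at 425 TPM, lay above all of these (log2 fold change 1.95, SE 0.53, adjusted p = 0.0410). The call was lost without any 1 of DMSO replicates 3, 6, 7 or 8 or of FGF4 replicates 1, 2, 4, 5, 7 or 8, with adjusted p between 0.0516 and 0.157 and log2 fold changes between 1.67 and 2.11.

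Sesn2 was at 40.98, 38.85, 38.27, 63.45 and 44.84 TPM in DMSO and at 68.48 to 127.16 TPM in FGF4, with a median of 87.4. The groups did not overlap, but the difference missed the threshold (log2 fold change 1.05, SE 0.35, limma adjusted p = 0.109). Asns and Sesn2 were the 2 members higher in every FGF4 library, against 1.13% of all genes. Chac1 (1.45, adjusted p = 0.180), Atf5 (1.04, adjusted p = 0.478), Nupr1 (1.03, adjusted p = 0.599), Trib3 (0.62, adjusted p = 0.770) and Cebpb (0.51, adjusted p = 0.679) had positive log2 fold changes without a call. Ddit4 (-0.06, adjusted p = 0.985), Atf4 (-0.75, adjusted p = 0.285) and Ddit3 (-1.22, adjusted p = 0.610) had negative ones. The summed primitive endoderm markers stood at 323 to 686 TPM in DMSO and at 1187 to 1981 TPM in FGF4, with 2 of the 7, Gata4 and Sox17, called higher. With the mean log2(TPM + 1) of these markers as a covariate Asns had a log2 fold change of 0.05 (limma adjusted p = 0.988). That fit called 1 of all genes, against 294 without this covariate. The marker sums did not overlap between DMSO and FGF4, so it cannot separate the markers from the treatment.

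LY+FGF4 was compared with LY for the effect of FGF4 with heparin under the inhibitor. Ddit4 fell and was the 1 member called by limma, where 4.5% of all genes fell. It ran from 15.25 to 107.32 TPM in LY and from 0 to 43.79 TPM in LY+FGF4, with overlapping groups (log2 fold change -2.99, SE 0.76, adjusted p = 0.0164). With the primitive endoderm markers as a covariate the log2 fold change was -3.04 (adjusted p = 0.565), in a fit that called 1 of all genes against 758 without it. Without the 6 libraries under 9000 genes the log2 fold change was -2.70 (adjusted p = 0.0535).

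Genes upstream of the members were examined next, to place the members within their pathway. None of 10 eIF2 kinases and their regulators was called in LY vs DMSO or in LY+FGF4 vs FGF4 by limma. At an unadjusted p under 0.05 there were 1 and 2, with median log2 fold changes of 0.03 and -0.60. Of all 12034 genes 1034 and 2258 had such a p in these comparisons, which applies to the lists below as well. The kinase genes Eif2ak1 (0.38 and -1.04), Eif2ak2 (-1.38 and -0.16), Eif2ak3, which encodes PERK (0.69 and -1.02), and Eif2ak4, which encodes GCN2 (-0.29 and -0.24), had these log2 fold changes in that order. None of 11 genes for eIF2, eIF2B and the eIF2 phosphatase was called in either LY comparison, with 3 and 1 at an unadjusted p under 0.05. Among them Ppp1r15a, the stress-induced phosphatase subunit, had log2 fold changes of 0.11 (adjusted p = 0.994) and 1.40 (adjusted p = 0.191). Phosphorylation and translation were not measured, so transcript levels say nothing of the activity of these kinases.

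Relatives of the members by gene family were listed beside them, and some of these, such as Atf3, are known to take part in the stress response too. None of the 8 tested paralogues of 13 was called in either LY comparison by limma, with 1 in each at an unadjusted p under 0.05. Trib1, a relative of Trib3, had log2 fold changes of 0.18 and -1.19. Sesn1 had -0.09 and -0.36 and Sesn3 1.06 and 2.01 (adjusted p = 0.157 with FGF4), where Sesn3 averaged 38.1 TPM in DMSO and 86.6 with LY, and 25.6 with FGF4 and 63.3 with both. Cebpg, a partner of ATF4, had 0.56 in both. Atf3 and Trib2 did not pass the filter.

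Genes known as ATF4 targets in amino acid metabolism fell in both LY comparisons, in part. Of 14 tested genes of amino acid synthesis and one-carbon metabolism 2 fell with LY alone (median log2 fold change -1.01). With LY under FGF4 6 fell (median -1.61), and none rose in either comparison. Of all genes 0.299% and 2.83% fell in these comparisons, and these lists too were chosen with earlier results of these data known. Mthfd2, a mitochondrial folate enzyme, averaged 89.3 ± 30.9 TPM in DMSO and 9.68 ± 5.08 TPM in LY (log2 fold change -3.20, limma adjusted p = 0.000685), and 111 ± 27.7 TPM in FGF4 and 17.1 ± 11.8 TPM in LY+FGF4 (-2.82, adjusted p = 0.000264). Psat1, of serine synthesis, had log2 fold changes of -1.66 (adjusted p = 0.00450) and -1.63 (adjusted p = 0.000658). Pck2, a mitochondrial enzyme of phosphoenolpyruvate synthesis, fell under FGF4 (-2.89, adjusted p = 0.000393), as did Mthfd1l (-2.81, adjusted p = 0.00805).

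Of 8 tested amino acid transporter genes 1 fell with LY alone and 3 under FGF4, where 0.299% and 2.83% of all genes fell. Slc3a2, the shared heavy chain of several transporters, had log2 fold changes of -1.02 (limma adjusted p = 0.0225) and -0.70 (adjusted p = 0.0416). Slc38a2, a neutral amino acid transporter gene, averaged 9.48 ± 6.31 TPM in FGF4 and was at 0 in 5 of 6 LY+FGF4 libraries (-2.76, adjusted p = 0.00394), and Slc7a1, for cationic amino acids, had -2.49 (adjusted p = 0.0438). Of 13 aminoacyl-tRNA synthetase genes, which load amino acids onto tRNAs, 1 fell with LY alone, Tars, and 9 fell under FGF4. Under FGF4 13 of 13 were negative, against 63.1% of all genes, with a median of -1.26. Sars averaged 910.4 ± 198 TPM in FGF4 and 315 ± 81.4 TPM in LY+FGF4, with no overlap (-1.56, adjusted p = 3.72e-05). In FGF4 vs DMSO, where 0.981% of all genes rose, 3 of the 13 rose, Nars (1.25), Wars (0.90) and Eprs (0.84). With the trophectoderm markers, the read number or the number of genes listed as covariate 1 did. With the primitive endoderm markers as a covariate 0 did, in a fit that called 1 of all genes against 294 without it.

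**Figure D3:**
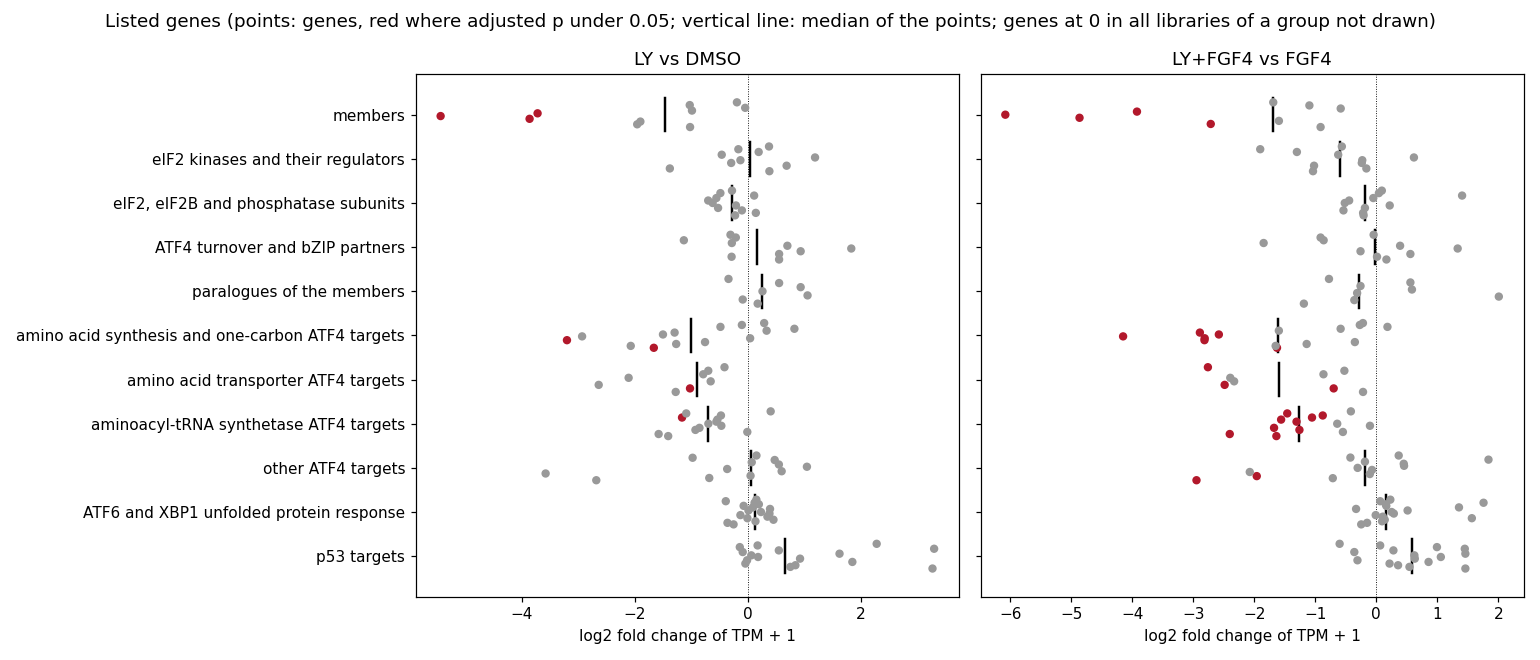
Log2 fold change of TPM + 1 (horizontal axis) of each tested gene in the members and in 10 related lists, for LY vs DMSO (left) and LY+FGF4 vs FGF4 (right), with adjusted p under 0.05 in red and the median of the drawn points as a vertical line. Genes at 0 in all libraries of a group are not drawn. In this fit red points lie in the members and in the lists of ATF4 targets but in none of the other lists.

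The number of listed genes called changed with the libraries and the fit used. Without the 6 libraries under 9000 genes, 3 of the 14 synthesis genes, 1 of the 8 transporter genes and 3 of the 13 synthetase genes fell in LY+FGF4 vs FGF4, and 4, 3 and 4 of them fell in LY vs DMSO. That fit kept only replicates 6 and 7 of LY+FGF4, which lowers what it can call there. It kept every DMSO and LY library, but the shared estimate of spread and the set of genes tested were formed anew. Their parts in the LY vs DMSO counts were not told apart. With the primitive endoderm markers as a covariate, 0 genes of these lists were called in LY vs DMSO, where 0 of all genes were, and 4, 1 and 7 in LY+FGF4 vs FGF4. With library weights 6, 4 and 7 fell in LY vs DMSO and 4, 0 and 5 in LY+FGF4 vs FGF4, and with the groups fitted alone 3, 2 and 4 and 3, 0 and 5. With the number of genes listed as covariate the counts were 2, 0 and 0 and 3, 1 and 4. A larger count under FGF4 than without it is thus not a property of these lists in every fit. The lists without a red point were not free of calls in every fit either. In LY vs DMSO with library weights, which called 496 of all genes, 2 of 16 p53 targets rose. There 1 of 11 genes for eIF2, eIF2B and the eIF2 phosphatase fell. Of 10 tested genes of ATF4 turnover and ATF4 partners 1 rose and 1 fell. With the groups fitted alone 1 p53 target and 1 of these 10 rose.

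Other arms of the stress response were listed in the same way. Of 13 tested further ATF4 targets 2 fell under FGF4, where 2.83% of all genes fell. The first was Herpud1, of endoplasmic reticulum protein turnover (log2 fold change -2.95, limma adjusted p = 0.0205). The other was Stc2, a secreted glycoprotein gene at a mean of 5.39 TPM or lower in every group (-1.96, adjusted p = 0.0367). In LY+FGF4 vs FGF4 neither was called with library weights, with the groups fitted alone or without the 6 libraries under 9000 genes. The same held with the number of genes listed or the primitive endoderm markers as covariate. In LY vs DMSO 0 of the 13 were called, but 2 fell with library weights and 2 with the groups fitted alone. There Herpud1 ran from 53.51 to 99.89 TPM in DMSO and from 2.08 to 32.47 TPM in LY. Stc2 ran from 0 to 3.77 TPM in DMSO and was at 0 in all LY libraries. Of 17 genes of the ATF6 and XBP1 arms of the unfolded protein response 0 were called by limma in LY vs DMSO or in LY+FGF4 vs FGF4, with 0 and 2 at an unadjusted p under 0.05 and medians of 0.12 and 0.15. Hspa5, the chaperone BiP of this arm, had log2 fold changes of -0.25 (95% interval -0.84 to 0.34) and -0.25 (-0.79 to 0.29), and Xbp1 0.14 and 0.09. Sesn2 and Ddit4 are also known as p53 targets. Of 16 other tested p53 targets 0 were called in either LY comparison, with 4 and 0 at an unadjusted p under 0.05 and medians of 0.65 and 0.58.

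Within groups the members did not move as a unit. Over the deviations of 26 libraries from their group means, the 45 pairs of members had Pearson's r between -0.41 and 0.56 with a median of 0.03, and 26 pairs were positive. The highest were Sesn2 with Asns (r = 0.56, Spearman's rho = 0.46), Atf4 with Ddit3 (r = 0.50) and Trib3 with Cebpb (r = 0.48). These points share library and depth, and zeros limit what Trib3, Nupr1, Chac1 and Ddit3 can show in LY libraries. The genes outside all lists whose deviations were most like the mean of the 10 members were Fkbp1b (r = 0.75, rho = 0.68), Klhl21 (r = 0.72, rho = 0.72), Vti1b (r = 0.71, rho = 0.79), Zfp771 (r = 0.69), Apba3 (r = 0.68) and Pon2 (r = 0.67), over 26 libraries. Without LY replicate 8 and LY+FGF4 replicate 6, the libraries farthest from the median, these r values were 0.71, 0.67, 0.75, 0.56, 0.61 and 0.75, in that order. These genes were picked for the highest r among all tested genes outside the lists, so r describes the pick and tests nothing. The mean they were matched to joins members that did not move together.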

How the data were processed

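mRNA was measured in 26 single-ICM libraries. The labels state trimming and de-duplication; per the submitters' processing notes, STAR, RSEM and mm10 were used. The deposited values are TPM per gene symbol as computed by the authors, and their versions, annotation and strand setting are not given in the sources used. All columns share 1 total, so read totals are unknown; the worth of 1 read was estimated from value spacing, with an assumed fragment length of 200, and 72.4% to 90.8% of low values lay within 0.15 of a whole multiple. Intervals and limits from 3 reads cover counting error only.

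Values were tested as log2(TPM + 1) with limma 3.58.1 (R 4.3.3), for the 12034 genes that reached 1 TPM in 5 libraries or more, with 1 mean per group in 1 fit of 26 libraries, using trend and robust moderation. P-values were two-sided, with Benjamini-Hochberg adjustment over all genes and a threshold of 0.05. The fit was also run on simulated data, drawn as normal values on the log scale. Changes were planted in LY alone and in more highly expressed genes, so the simulation does not cover genes mostly at 0. Log2 fold changes understate changes of low genes, and none is given where a group was at 0 throughout. Replicate numbers did not pair libraries (31 pairs, median r of deviations -0.00406), so no block was used. The labels give the same date throughout and no batch.

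Members and gene lists were chosen with earlier results of these data known. The rule named all 10 members, up to 4 called genes of each other list with the smallest p in the LY comparisons, 13 set genes and the 6 genes most like the members; Tars, Wars, Eprs, Sox17 and Pdgfra were named after their values were seen. Alternatives covered pseudocount, filter, scaling, weights, covariates, a replicate block, groups fitted alone and each library left out.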

Additional observations from a re-analysis of the deposited data

Results flagged for a closer look

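Values of the 10 members were checked for a library set apart from the others of its group, by the gap to its nearest neighbour over the group's range of log2(TPM + 1). Of 39 groups of values tested, 6 were flagged, and chance flags about 1 in 20. DMSO replicate 8 was set apart by a low value of Ddit3, listed at 0 TPM, and by a low value of Ddit4, at 18.32 TPM. Its Nupr1 value was the highest of the DMSO group. In LY, replicate 6 was set apart by Chac1 at 5.64 TPM, the only value above 0 in that group, and replicate 7 by Asns at 451.13 TPM. In LY+FGF4, replicate 3 was set apart by Trib3 at 17.68 TPM and replicate 7 by Ddit3 at 3.36 TPM, each the only value above 0 in its group. A value above 0 in a group otherwise at 0 is flagged whatever its size.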

How the results depend on the processing

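In LY vs DMSO, 3 members were called; 5 were with library weights (Atf4 and Atf5 added), 1 with the replicate block (Nupr1), 0 with the estimated read number, 0 with the primitive endoderm markers as a covariate, and 2 to 3 without 1 library. In LY+FGF4 vs FGF4, 5 members were called, and 4 to 7 over 27 alternatives (5 to 7 without 1 library, the highest without LY+FGF4 replicate 7); Trib3, Nupr1, Chac1 and Ddit4 were called in all 27. In FGF4 vs DMSO, 1 member was called; 2 were with the groups fitted alone and with library weights, 0 with no filter, with the replicate block, with the read number, with the trophectoderm markers and with the primitive endoderm markers, and 0 to 1 without 1 library. In LY+FGF4 vs LY, 1 was called and 0 with the groups fitted alone, with the primitive endoderm markers or without the libraries under 9000 genes. The interaction called 0 members in all 38 alternatives. The replicate block changed no other member's call, though replicate numbers pair nothing here.

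Signs that turned were all of uncalled values. In LY vs DMSO Asns gave 0.11 with the number of genes listed, 0.26 with the read number, 1.65 with the primitive endoderm markers and -0.48 to 0.058 without 1 library, positive without DMSO replicate 9. Sesn2 gave 0.041 with the number of genes listed, 0.60 with the primitive endoderm markers and -0.20 to 0.14 without 1 library, positive without DMSO replicate 8 or LY replicate 6 or 8. In LY+FGF4 vs FGF4 Sesn2 gave 0.17 without the libraries under 9000 genes. In FGF4 vs DMSO Ddit4 gave -0.58 to 0.15 without 1 library, positive without DMSO replicate 3, 7 or 9 or FGF4 replicate 5, 7 or 8. The cause was not tested. Over all genes 45 were called in LY vs DMSO (0 to 496 over alternatives), 427 in LY+FGF4 vs FGF4 (73 to 589), 294 in FGF4 vs DMSO (1 to 1074), 758 in LY+FGF4 vs LY (1 to 872) and 6 in the interaction (2 to 27). Median-ratio scaling moved the median of all genes by less than 0.1 in each comparison. Depth limits members near 0: 1 read of Chac1 was worth up to 2.69 TPM in LY.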
